A study of Mus musculus with 59 samples.

Results

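The direct comparison of cerebellum from mice with expanded ATXN1 that cannot bind CIC (154Q-AXH) with cerebellum from mice with expanded ATXN1 that can (154Q) is described here. The groups were taken from the sample labels alone, and 8 of the 59 libraries of the series belong to the comparison, 4 of each genotype, each from 1 mouse. The values of WT mice, with 4 cerebellar libraries, are given for the direction only. Their libraries share the fit with the other 2 genotypes and so enter its estimate of spread. All mice were labelled C57BL/6, aged 10 weeks. The 154Q mice were Atxn1 154Q/2Q knockins, which carry 154 CAG-encoded glutamines on 1 allele of the endogenous Atxn1 locus and 2 glutamines on the other. The 154Q-AXH mice were Atxn1 154Q[V591A;S602D]/2Q: the same expanded allele with the substitutions V591A and S602D in the AXH domain, introduced by genome editing of the 154Q line, with the 2Q allele left able to bind CIC. The knockin is expressed from its own promoter in every cell type that uses Atxn1, and each library is whole tissue, so that fewer cells of a type and less RNA per cell cannot be told apart. The study used this pair of genotypes, in 5 brain regions, to separate the effects of expanded ATXN1 that pass through CIC from those that do not.

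Spinocerebellar ataxia type 1 is caused by a longer glutamine tract in ATXN1, a nuclear protein of neurons and other cells, and Purkinje cells, the output neurons of the cerebellar cortex, are its best known target. ATXN1 and its relative ATXN1L bind the repressor Capicua (CIC) through the AXH domain and stabilise it. CIC recognises short octamers of DNA in enhancers and promoters, silences genes such as Etv4, Etv5, Spry4 and Dusp6, and is itself switched off by receptor tyrosine kinase and MAPK signalling.

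The codons changed in the 154Q-AXH allele lie in the reference Atxn1 (ENSMUSG00000046876) at chr13:45566672-45566737 (GRCm38, minus strand), in coding exon 1 of 2 of the GENCODE M21 frame of 791 codons. They are shown to place the amino acid changes between the 2 genotypes, with the valine and serine codons in capitals. Per its methods, the study also placed synonymous changes there, which are not marked.
Atxn1 codons 561 to 582: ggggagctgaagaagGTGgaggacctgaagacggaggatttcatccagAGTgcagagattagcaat
The allele name numbers the residues by the human protein, where they are also 11 apart. The codon numbers here also differ from the mouse numbering that the study gives. Of 8 valine and serine codons 11 apart in the mouse frame, the pair shown, codons 566 and 577, is the one at the study's guide RNA, matched by hand. The counts read neither the repeat nor these codons, so the genotype of a library could not be checked from them.

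Neither Atxn1 nor Cic was called between the genotypes, and their libraries overlapped. The Atxn1 154Q libraries held 58.0, 47.0, 51.6 and 47.2 CPM (counts per M counted pairs, where M is mega, scaled by trimmed mean of M-values, TMM) and its 154Q-AXH libraries 58.7, 53.6, 52.0 and 50.3, a log2 difference of 0.08 ± 0.09 (SE; adjusted p = 0.926). Cic itself held 185.2, 189.4, 188.3 and 178.8 CPM in 154Q and 189.8, 192.6, 186.5 and 210.2 in 154Q-AXH (0.07 ± 0.06, adjusted p = 0.863). Of the 15 tested members of a list of ATXN1 and its nuclear partners, none was called in either direction. Atxn1l, the relative that also binds CIC, differed by -0.02 ± 0.05 and Rfx1, Zkscan1 and Zbtb5, transcription factors listed as partners, by 0.02 ± 0.05, -0.06 ± 0.06 and -0.02 ± 0.05. Here and below, differences are log2(154Q-AXH) minus log2(154Q), tested by quasi-likelihood in edgeR and adjusted by the method of Benjamini and Hochberg over 20874 genes. A gene was called at an adjusted p under 0.05.

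The libraries held 64.4 to 106.2 M read pairs counted on genes, and 75.3% to 77.7% of pairs were so counted. No library measure reached p of 0.05 between the 2 mutant genotypes (two-sided exact permutation test, 4 against 4, p from 0.057 to 0.943, where 0.0286 is the smallest p possible). Ttr, the leading gene of the choroid plexus, ranged from 12.6 to 2601 CPM in 154Q and from 13.2 to 1604 in 154Q-AXH. One 154Q library and 1 154Q-AXH library had high Xist and almost no Ddx3y. Purkinje and granule cell markers were abundant in every library, with summed levels of 10330 to 12250 CPM and 8905 to 9975 CPM over the 8 libraries, whereas the 8 tested forebrain markers summed to 12.4 to 16.2. The mouse numbers of all 4 154Q mice were under 100 and those of all 4 154Q-AXH mice over 200, so number series and genotype cannot be told apart within the comparison. Of the WT mice, 2 were in each series. Their Ttr was 1346 and 2815 CPM in the series under 100 and 48.8 and 12.2 CPM in the series over 200. An adjustment for series therefore rests on WT libraries in which series and Ttr cannot be told apart. For the lists described by a direction, the median with the series as a covariate is given where its sign changed.

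Few genes passed the test between the 2 mutant genotypes. Of the called genes 6, or 0.0287% of those tested, were higher in 154Q-AXH than in 154Q, among them Stap2, Plcb3, Grm4, Plk5 and Triobp. A830018L16Rik alone was lower, 0.00479% of those tested. An unadjusted p under 0.05 was reached by 1586 genes. For all 7, the 4 libraries of one genotype lay wholly outside the range of the other. Higher non-overlapping libraries were found for 753 genes (3.61%) and lower ones for 510 (2.44%). With the WT libraries left out of the fit, 49 genes were called higher and 5 lower of 20301 tested.

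Stap2 encodes an adaptor protein with a pleckstrin homology and an SH2 domain that acts in kinase signalling (chr17:55997077-56005584, minus strand). Its 154Q libraries held 11.1, 11.5, 10.9 and 11.3 CPM. In 154Q-AXH it held 19.6, 17.3, 15.9 and 16.8. WT libraries held 23.6, 24.3, 26.7 and 25.6, so the 154Q-AXH libraries lay above every 154Q library and below every WT library. The difference was 0.64 ± 0.06 (1.56-fold, adjusted p = 0.0021, n = 4 per genotype, edgeR's quasi-likelihood test).

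Plcb3 encodes phospholipase C beta 3, an enzyme that links Gq-coupled receptors to release of calcium from stores (chr19:6952325-6976470, minus strand). The 154Q libraries held 39.6, 42.0, 39.0 and 38.6 CPM and the 154Q-AXH libraries 53.3, 51.2, 54.2 and 56.5. WT libraries held 66.6 to 75.2 CPM, again above both. Plcb3 was higher by 0.43 ± 0.05 (1.35-fold, adjusted p = 0.00473). An exon of Ppp1r14b overlaps it, and strand was not used in the counting, so reads of the overlap cannot be told apart.

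Grm4 encodes mGlu4, a group III metabotropic glutamate receptor of the parallel fibre terminals of granule cells (chr17:27422387-27521403, minus strand). It held 194.8, 207.1, 209.04 and 220.7 CPM in 154Q and 290.8, 291.8, 275.8 and 252.3 in 154Q-AXH. No library of one genotype reached the range of the other, and the WT libraries held 346 to 395 CPM. Its difference was 0.42 ± 0.06 (1.34-fold, adjusted p = 0.0236).

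Plk5, a polo-like kinase family member of neurons and glia that lacks a working kinase domain (chr10:80356459-80365489, plus strand), held 31.7, 38.0, 31.6 and 38.4 CPM in 154Q. Its 154Q-AXH libraries held 56.2, 53.7, 43.4 and 55.6 CPM, all above 154Q, and WT held 66.5 to 71.7. Plk5 was higher by 0.58 ± 0.08 (1.495-fold, adjusted p = 0.0274).

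Triobp encodes an actin-bundling protein (chr15:78947724-79005869, plus strand). It held 28.1, 30.3, 25.4 and 26.6 CPM in 154Q and 36.1, 34.5, 34.0 and 35.6 in 154Q-AXH. Its 4 WT libraries, at 32.9 to 35.7 CPM, overlapped those of 154Q-AXH, unlike those of Stap2, Plcb3, Grm4 and Plk5. The difference between the mutant genotypes was 0.34 ± 0.05 (1.27-fold, adjusted p = 0.046). Exons of Gm10865 overlap Triobp.

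The gene that was lower, A830018L16Rik, is a long gene on chr1:11414105-11975901 (plus strand) that the rule for named genes left out for its symbol, so it was chosen after its values were seen. In 154Q it held 21.7, 22.1, 21.9 and 20.3 CPM and in 154Q-AXH 15.8, 16.4, 17.2 and 14.3. The WT libraries, at 10.3 to 11.7, lay below both. It was lower by 0.43 on the log2 scale (-0.43 ± 0.06, adjusted p = 0.0274).

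**Figure D1:**
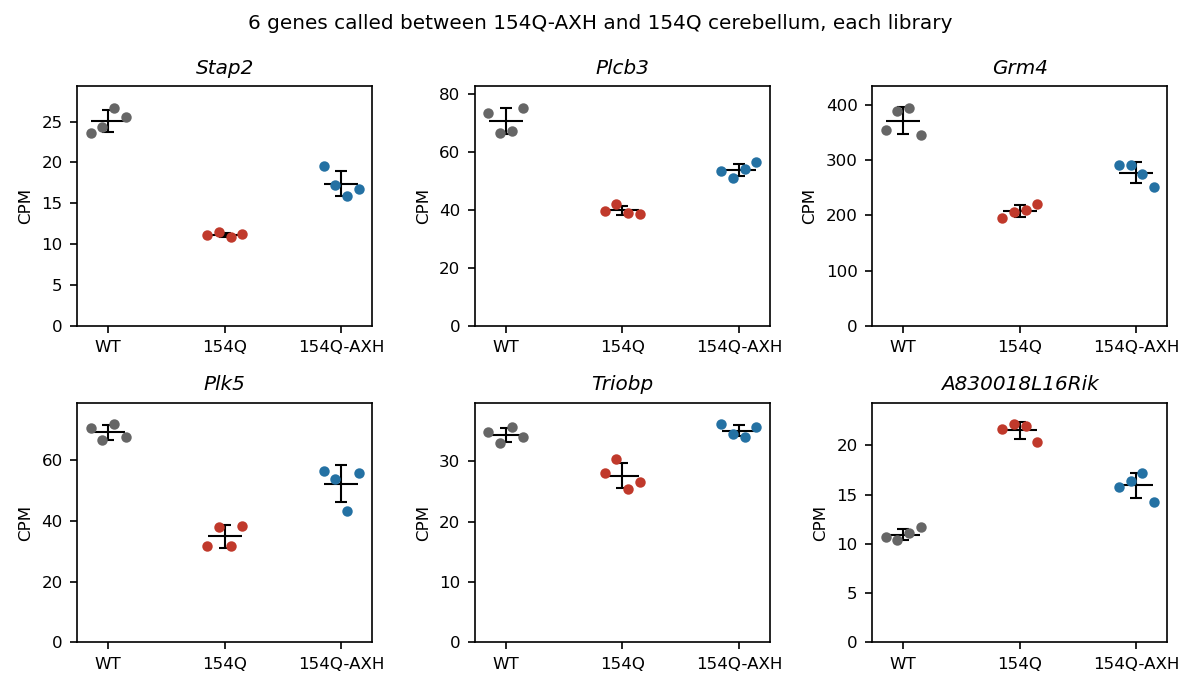
Normalised counts (CPM, TMM-scaled, axis from 0) of 6 of the called genes in each of the 12 cerebellar libraries, by genotype. Points are libraries and bars the mean ± SD (n = 4). Stap2 sat at 10.9 to 11.5 CPM in 154Q and at 15.9 to 19.6 in 154Q-AXH, and Triobp in 154Q-AXH overlapped WT.

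Relative to WT, the same genes stood apart in 154Q. The comparison with WT shares the 154Q libraries, so the values are given side by side only. Stap2 was at -1.16 in 154Q minus WT and at -0.52 in 154Q-AXH minus WT. Plcb3 was at -0.83 and -0.39, Grm4 at -0.84 and -0.42, Plk5 at -0.99 and -0.41 and Triobp at -0.31 and 0.03. A830018L16Rik was at 0.97 and 0.54. Calls against WT are not made here, as WT is given for the direction only.

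Over 24 alternatives, Stap2 ranged from 0.51 to 0.68, Plcb3 from 0.39 to 0.46, Grm4 from 0.36 to 0.46, Plk5 from 0.42 to 0.66, Triobp from 0.27 to 0.39 and A830018L16Rik from -0.54 to -0.38. DESeq2, the tool of the study, called all 7 among 99 genes higher (0.601% of 16482 with an adjusted p) and 25 lower (0.152%). With number series as a covariate, Stap2 (0.51, adjusted p = 0.0492) and A830018L16Rik (-0.54, 0.0492) stayed called, and Mdfi, described next, was also called (0.92). Without the 2 libraries with high Xist, 2 genes were called, Stap2 and Plk5. With only the 7 libraries over 100 Ttr CPM, edgeR's test called none, and 1389 genes had an unadjusted p under 0.05.

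The genes with the next smallest p, chosen after their values were seen, had adjusted p from 0.0511 to 0.0612 and did not overlap between the genotypes. Of these 11, 10 had higher values in 154Q-AXH (Plxdc1, Ccdc63, Mdfi, Col18a1, Fam107b, Hpcal1, Muc3a, Kctd12, Doc2b and Cep76) and Rprm had lower ones. Mdfi, an inhibitor of myogenic transcription factors, held 6.35, 5.96, 5.42 and 6.92 CPM in 154Q and 9.21, 9.77, 10.9 and 10.6 in 154Q-AXH (0.72 ± 0.12, adjusted p = 0.0553). Hpcal1, a neuronal calcium sensor, held 195.5, 198.9, 186.3 and 198.6 CPM against 217.9, 236.7, 222.4 and 246.3 (0.24 ± 0.04, adjusted p = 0.0566). Kctd12, an auxiliary subunit of GABA-B receptors, held 74.3, 89.7, 73.2 and 73.4 CPM against 102.9, 94.0, 104.5 and 102.8 (0.38 ± 0.07, adjusted p = 0.0583). Doc2b, a calcium sensor of vesicle release, differed by 0.21 ± 0.04, and Rprm, a cell cycle inhibitor, by -0.66 ± 0.11. DESeq2 gave each of the 11 an adjusted p of at most 0.000238.

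Of a list of Purkinje calcium signalling genes, which also holds Cbln1 of granule cells, 33 were tested. Plcb3 alone of these genes was called, and none was called lower. Their median difference was 0.12, beside -0.01 over all genes tested, and 28 of the 33 had a positive value. The 4 libraries did not overlap for 14 members, all with higher values in 154Q-AXH, or 42.4%, against 3.61% of all genes. Grid2ip, a postsynaptic scaffold protein, differed by 0.29 ± 0.08 (adjusted p = 0.374). Atp2a3, a calcium pump of the store, differed by 0.15 ± 0.04 (0.395), and Car8, which holds back the inositol trisphosphate receptor, by 0.14 ± 0.04 (0.378). Itpr1, the store's release channel, stood at 0.08 ± 0.06 (0.812) and overlapped between the genotypes.

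Rgs8 and Calb1 were called by DESeq2 but not by edgeR. Rgs8, a Purkinje regulator of G protein signalling, held 1143, 1064, 1095 and 1054 CPM in 154Q. Its 154Q-AXH libraries held 1218, 1304, 1255 and 1336, and its WT libraries 1524 to 1713. Its difference was 0.23 ± 0.04 (edgeR adjusted p = 0.104, DESeq2 adjusted p = 0.000986). Calb1, the calcium buffer calbindin, held 1230, 1228, 1200 and 1192 CPM in 154Q and 1277, 1357, 1303 and 1359 in 154Q-AXH (0.13 ± 0.03, edgeR adjusted p = 0.34, DESeq2 adjusted p = 0.0471). For both genes the 3 genotypes did not overlap, with 154Q lowest and WT highest.

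Markers of Purkinje cells as a list had a median of 0.14, and none of the 20 was called. Values were positive for 19 of 20, with Foxp2 (-0.34 ± 0.13, adjusted p = 0.538) the exception. Libraries did not overlap for 9 members, all higher in 154Q-AXH, or 45.0%, beside 3.61% of all genes. Aldoc, the zebrin II stripe marker, held 1297, 1268, 1271 and 1234 CPM in 154Q and 1470, 1435, 1370 and 1564 in 154Q-AXH (0.20 ± 0.05, adjusted p = 0.322). Dner, a Notch ligand of Purkinje dendrites, held 519, 556, 527 and 531 against 569, 590, 577 and 619 (0.14 ± 0.04, adjusted p = 0.328). Pcp2, at 63.7 to 84.3 CPM in 154Q and 71.6 to 97.8 in 154Q-AXH, overlapped. In each library, the median over the 20 markers of log2(CPM + 0.1) minus the gene's mean was -0.124, -0.163, -0.173 and -0.189 in 154Q and -0.085, -0.017, -0.040 and 0.058 in 154Q-AXH, with WT at 0.108 to 0.227. The list's median against 154Q stayed between 0.11 and 0.19 over 24 alternatives. The calcium list ranged from 0.07 to 0.15, its lowest value being that with the number series as a covariate. Since the lists share 10 members, they are not separate observations.

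**Figure D2:**
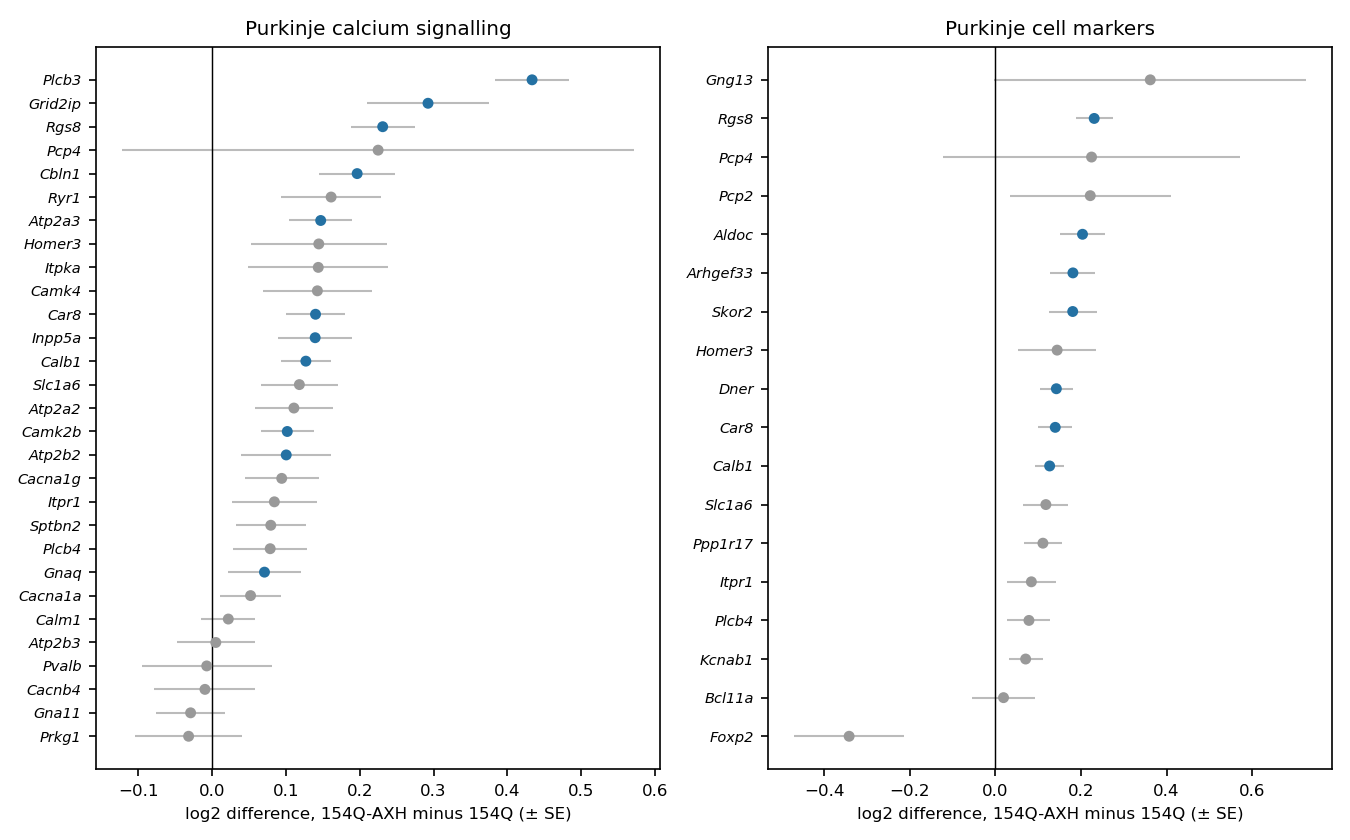
Log2 difference, 154Q-AXH minus 154Q (x axis), of members of both Purkinje lists (some are not shown), with SE. Blue points mark members whose 4 libraries of 154Q-AXH all lay above the 4 of 154Q, among them Plcb3, Rgs8 and Calb1, and grey points the others, such as Foxp2 at -0.34.

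Granule cells, the most numerous cells of the cerebellum, were described by 20 markers. Of these none was called, 18 had positive values, and the median was 0.12. Libraries of 8 did not overlap, all higher in 154Q-AXH (40.0%, beside 3.61% of all genes). Cbln3, a cerebellin that granule cells release with Cbln1, held 1438, 1407, 1448 and 1504 CPM in 154Q and 1637, 1679, 1632 and 1534 in 154Q-AXH (0.16 ± 0.04, adjusted p = 0.309). Cbln1, which joins parallel fibres to Purkinje dendrites, was counted in the Purkinje calcium list and is not among these 20 markers. It held 752, 712, 652 and 780 against 824, 862, 803 and 829 (0.20 ± 0.05, adjusted p = 0.322). Chn2, a Rac regulator, differed by 0.15 ± 0.04 and Rbfox3, the antigen NeuN, by 0.13 ± 0.04. The median stayed positive in 22 of 24 alternatives. With the number series as a covariate it was -0.05, and in WT mice it was higher by 0.10 in the series over 200 than in the series under 100. Cerebellar interneuron markers (16 tested) had a median of -0.01 and Bergmann glia and astrocyte markers (16 tested) one of 0.00, with none called.

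**Figure D3:**
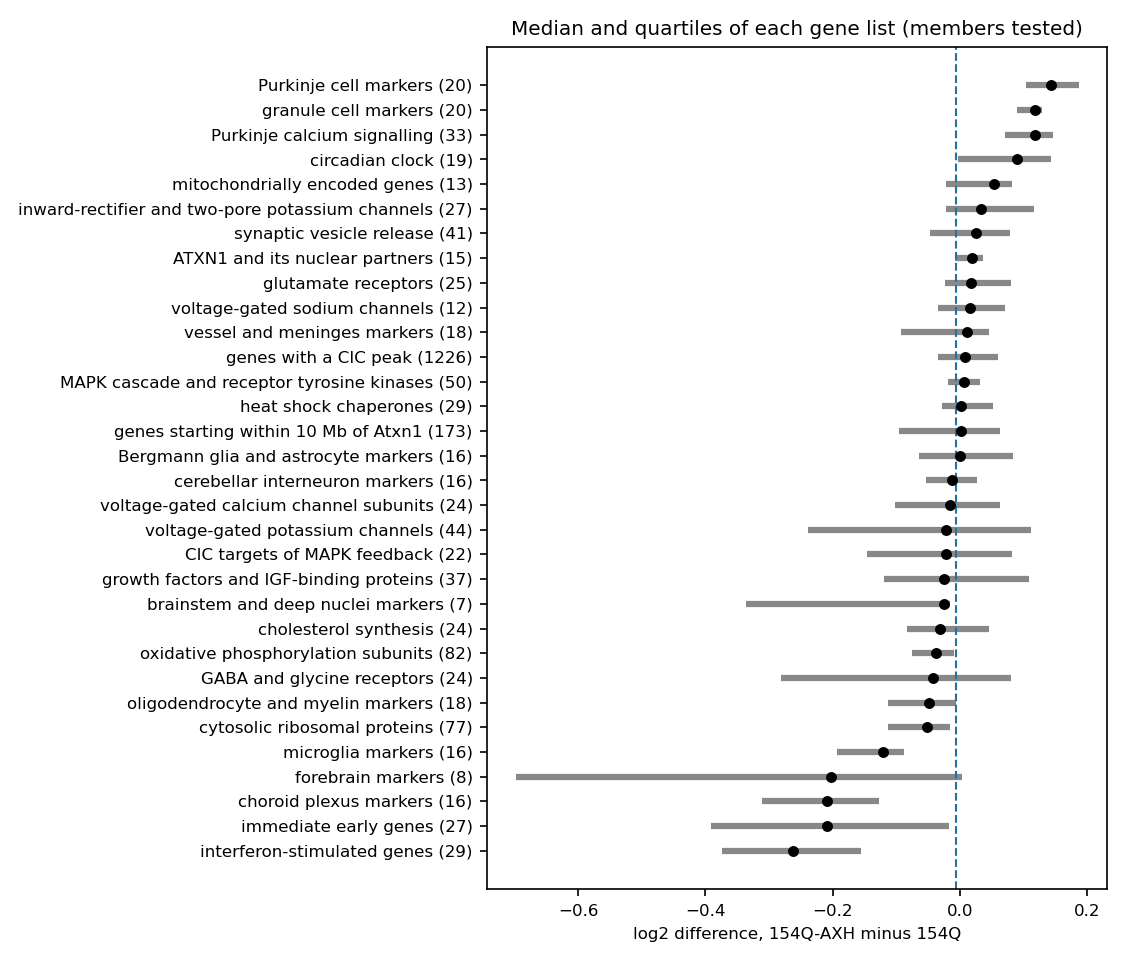
Median (point) and quartiles (bar) of the log2 difference, 154Q-AXH minus 154Q (x axis), over the tested members of each gene list, whose number is in parentheses. The dashed line is the median of all 20874 genes. Purkinje and granule lists had the highest medians (0.12 to 0.14) and interferon-stimulated genes the lowest (-0.26).

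Among synaptic and channel genes Grm4 was the called member, 1 of 25 glutamate receptor genes tested (median 0.02). The granule NMDA subunit gene Grin2c (0.12 ± 0.05) did not overlap between genotypes either but was not called. Kcnc1, a fast potassium channel of neurons that fire at high rates, held 534, 550, 557 and 540 CPM in 154Q against 624, 643, 586 and 605 in 154Q-AXH. It did not overlap between the 2 genotypes and was called by DESeq2 only (0.17 ± 0.04, edgeR adjusted p = 0.224, DESeq2 adjusted p = 0.0311). The 44 voltage-gated potassium channel genes had a median of -0.02, the 12 sodium channel genes 0.02 and the 24 calcium channel genes -0.02, with no member called. Among 41 genes of synaptic vesicle release (median 0.03), none was called, and Stx1a, syntaxin 1A, held 2.59 to 3.57 CPM in 154Q and 2.02 to 2.44 in 154Q-AXH (-0.49 ± 0.11, edgeR adjusted p = 0.194, DESeq2 adjusted p = 0.0129).

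Genes that CIC represses, and that MAPK signalling releases from it, bear on the CIC binding in which the 2 genotypes differ. None of the 22 tested was called, 9 had positive values, none was free of overlap, and the median was -0.02. Etv4, an ETS factor and a canonical CIC target, held 20.6, 18.4, 18.4 and 18.8 CPM in 154Q and 18.6, 20.8, 19.5 and 21.8 in 154Q-AXH (0.08 ± 0.07, adjusted p = 0.873). Etv5 held 83.2, 100.1, 76.7 and 69.3 against 69.3, 66.7, 69.2 and 97.5 (-0.12 ± 0.15, adjusted p = 0.925), and Etv1 differed by 0.08 ± 0.08. Of the feedback inhibitors of MAPK signalling, Spry4 differed by -0.27 ± 0.24, with a wide range in 154Q-AXH (11.3 to 27.7 CPM), and Spred1 by -0.10 ± 0.07. Dusp6, a phosphatase of ERK, held 27.2, 26.0, 31.5 and 24.4 CPM in 154Q and 23.6, 19.7, 24.7 and 23.3 in 154Q-AXH (-0.26 ± 0.08, adjusted p = 0.425), and Spred3 differed by 0.21 ± 0.06 (adjusted p = 0.427). Among 50 genes of the MAPK cascade and its receptors none was called (median 0.01), and Rps6ka1, the kinase RSK1, differed by 0.17 ± 0.04 (edgeR adjusted p = 0.241, DESeq2 adjusted p = 0.0285). Of 37 growth factor and IGF-binding protein genes none was called. Igfbp5, a secreted IGF-binding protein, held 95.5, 114, 115 and 101 CPM in 154Q and 140, 140, 130 and 134 in 154Q-AXH (0.35 ± 0.08, edgeR adjusted p = 0.182, DESeq2 adjusted p = 0.00638), with WT at 206.6 to 274.

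The study's list of genes with a CIC peak was used for membership only. Of 1226 tested, 2 were called, Grm4 and Triobp, both higher, beside 6 higher (0.0287%) of all 20874 genes. Non-overlapping libraries were higher for 98 (7.99%) and lower for 22 (1.79%), beside 3.61% and 2.44% of all genes, and the median was 0.01. Of the 1184 members with an adjusted p by DESeq2, it called 17 higher and 1 lower. Beside these stand 99 (0.601%) and 25 (0.152%) of all 16482 genes with one. Rgs8, Cbln3, Etv4, Etv5, Spry4 and Dusp6 also had a peak, and Stap2, Plcb3 and Plk5 did not. Of 173 tested genes that start within 10 Mb of Atxn1, where sequence of the edited line could differ by descent, none was called (median 0.00).

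The promoters below show what the windows of called genes hold beside that of Dusp6, chosen as the CIC target whose window held a match. Each spans 250 bases before and 50 after a RefSeq start (GRCm38.p6). The CIC octamers TGAATGAA, TGAATGGA, TCAATGAA and TCAATGGA were searched on both strands, and matches are in capitals. Dusp6 holds 2 matches of TCAATGGA, on the opposite strand, 24 bases before and 1 base after the start.
Dusp6 chr10:99262981-99263280 (plus strand): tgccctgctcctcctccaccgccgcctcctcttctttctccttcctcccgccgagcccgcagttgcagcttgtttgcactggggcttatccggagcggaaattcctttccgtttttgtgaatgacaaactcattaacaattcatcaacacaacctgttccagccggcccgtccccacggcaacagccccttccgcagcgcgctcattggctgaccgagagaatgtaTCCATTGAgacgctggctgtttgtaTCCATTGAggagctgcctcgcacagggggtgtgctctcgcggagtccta
Plcb3 chr19:6969765-6970064 (minus strand): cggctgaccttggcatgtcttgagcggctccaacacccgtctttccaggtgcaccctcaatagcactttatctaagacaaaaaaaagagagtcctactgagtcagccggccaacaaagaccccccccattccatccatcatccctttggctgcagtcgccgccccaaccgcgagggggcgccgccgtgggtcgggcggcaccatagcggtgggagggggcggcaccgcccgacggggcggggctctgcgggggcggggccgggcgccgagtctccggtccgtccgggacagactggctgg
Plk5 chr10:80356209-80356508 (plus strand): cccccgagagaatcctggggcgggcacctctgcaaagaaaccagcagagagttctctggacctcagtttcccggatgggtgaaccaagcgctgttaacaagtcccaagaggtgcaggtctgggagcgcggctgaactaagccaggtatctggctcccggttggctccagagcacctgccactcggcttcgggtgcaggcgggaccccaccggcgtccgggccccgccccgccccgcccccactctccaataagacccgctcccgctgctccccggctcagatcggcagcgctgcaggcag
Neither Plcb3 nor Plk5 holds a match, and nor do the 2 windows each of Stap2 and Triobp, so 0 of the 4 called genes with a window had one. The windows of the CIC targets Etv1 (2), Etv5 (2) and Spred1 (1) held none either. Grm4 and A830018L16Rik are named only. An octamer was present for 3.11% of 13474 tested genes with a window and for 5.51% of 980 with a CIC peak. A match is a run of letters, not a bound site.

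Interferon-stimulated genes, the antiviral genes of innate immunity, had the lowest median of the lists. It was -0.26 over 29 tested, none of them called, with 2 positive values, and 8 members (27.6%) had non-overlapping lower libraries, beside 2.44% of all genes. Oas1a held 0.889, 0.746, 1.08 and 0.757 CPM in 154Q and 0.565, 0.428, 0.512 and 0.510 in 154Q-AXH (-0.78 ± 0.18, edgeR adjusted p = 0.205, DESeq2 adjusted p = 0.038). Stat2, the factor that switches such genes on, went the other way, with 68.6, 72.0, 73.6 and 76.03 against 86.8, 87.4, 83.3 and 85.7 CPM (0.24 ± 0.05, edgeR adjusted p = 0.136, DESeq2 adjusted p = 0.00244). The median of the list was 0.04 with the number series as a covariate, and one WT library lay above every other library. Microglia markers also had a negative median, -0.12 (0.09 with the series as a covariate), with 1 of 16 positive and none called. Their summed level was 193.8 to 224.0 CPM in 154Q and 180.2 to 186.3 in 154Q-AXH, with no defining marker at 0, and their part in the result was not tested. Immediate early genes, which follow neuronal activity, had a median of -0.21 over 27 tested, with 6 positive and none called. Oxidative phosphorylation subunits (82, median -0.04), cytosolic ribosomal proteins (77, median -0.05) and choroid plexus markers (16, median -0.21) had no called member, and in WT mice these 3 lists were lower in the series over 200 by 0.35, 0.32 and 3.89. With the series as a covariate their medians were 0.34, 0.25 and 3.75.

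**Figure D4:**
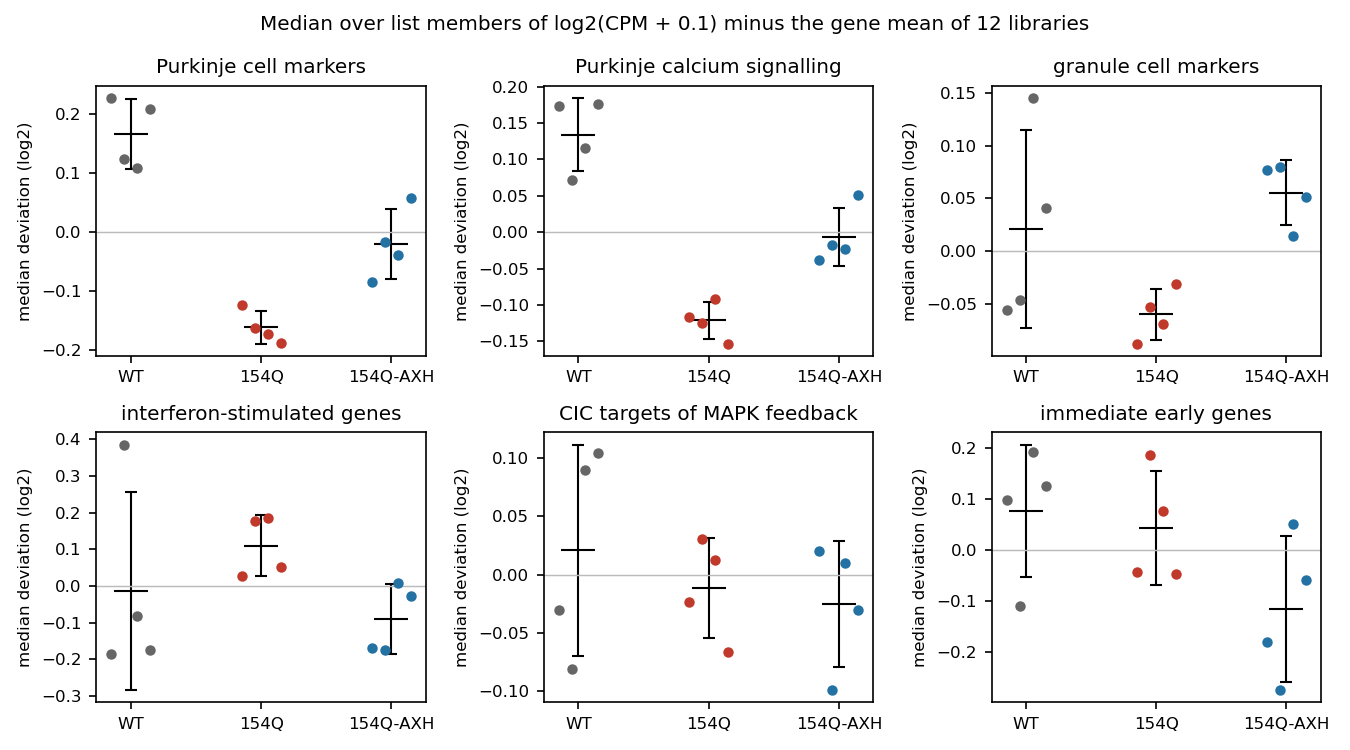
Median over list members of log2(CPM + 0.1) minus the gene's mean over 12 libraries (y axis), in each library, by genotype, with mean ± SD (n = 4). Purkinje cell markers held -0.189 to -0.124 in 154Q and -0.085 to 0.058 in 154Q-AXH, without overlap, and the CIC targets overlapped.

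Whether these differences were peculiar to the cerebellum was asked with the other 4 regions of the same mice. The test took the difference in cerebellum minus the mean of those in brainstem, hippocampus, striatum and cortex, over 39 libraries and 23908 genes. In all, 4 genes were called, all with a higher value in the cerebellum (0.0167%), and 1464 had an unadjusted p under 0.05. Leaving out only the cerebellar library of 154Q mouse 69 gave 3 higher and 9 lower. Leaving out only that of 154Q mouse 76 gave 5 higher and 9 lower. Plcb3, the only gene called in both tests, was at 0.45 ± 0.05 in cerebellum, 0.02 ± 0.06 in brainstem, -0.07 ± 0.05 in hippocampus, 0.09 ± 0.06 in striatum and 0.06 ± 0.05 in cortex, a difference of 0.42 ± 0.06 (adjusted p = 0.00043). With the mouse as a replicate block it was 0.42 (adjusted p = 0.000782), and against striatum alone 0.35 (adjusted p = 0.222).

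The other 3 were not called in the cerebellum alone. Slc2a13, a proton-coupled inositol transporter, held 83.9, 66.7, 86.6 and 70.4 CPM in 154Q cerebellum and 137.0, 149.7, 128.8 and 137.7 in 154Q-AXH, and its region test gave 0.76 ± 0.11 (adjusted p = 0.00043). Bach2, a transcriptional repressor, held 14.3, 11.7, 13.7 and 11.2 against 26.0, 24.2, 24.5 and 24.97 and gave 0.83 ± 0.12 (adjusted p = 0.000466). Against striatum alone Bach2 was at 0.62 (edgeR adjusted p = 0.356). Neither gene overlapped between the mutant genotypes, but the WT libraries spread over both, at 64.7 to 145.8 and 10.3 to 27.0 CPM, and were higher in the series over 200 by 0.64 and 0.84. Inpp5e, a ciliary phosphoinositide phosphatase, was at 0.20 ± 0.05 in cerebellum and between -0.15 and -0.02 elsewhere (0.31 ± 0.06, adjusted p = 0.0421). With the mouse as a replicate block Inpp5e was at 0.31 with an adjusted p of 0.0673, and without 3 libraries that stood apart in other regions at 0.29 with 0.0741, both by edgeR. Of the other called genes, Stap2 gave 0.69 ± 0.16 (adjusted p = 0.185), Triobp 0.28 ± 0.08 (0.474), Grm4 0.36 ± 0.26 (0.925) and Plk5 0.22 ± 0.21 (0.954), and for these no difference from the other regions was detected. Plk5 in hippocampus was at 0.94 ± 0.19, above its cerebellar value of 0.59 ± 0.17. These values include the 3 libraries that stood apart, among them a 154Q hippocampal library.

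**Figure D5:**
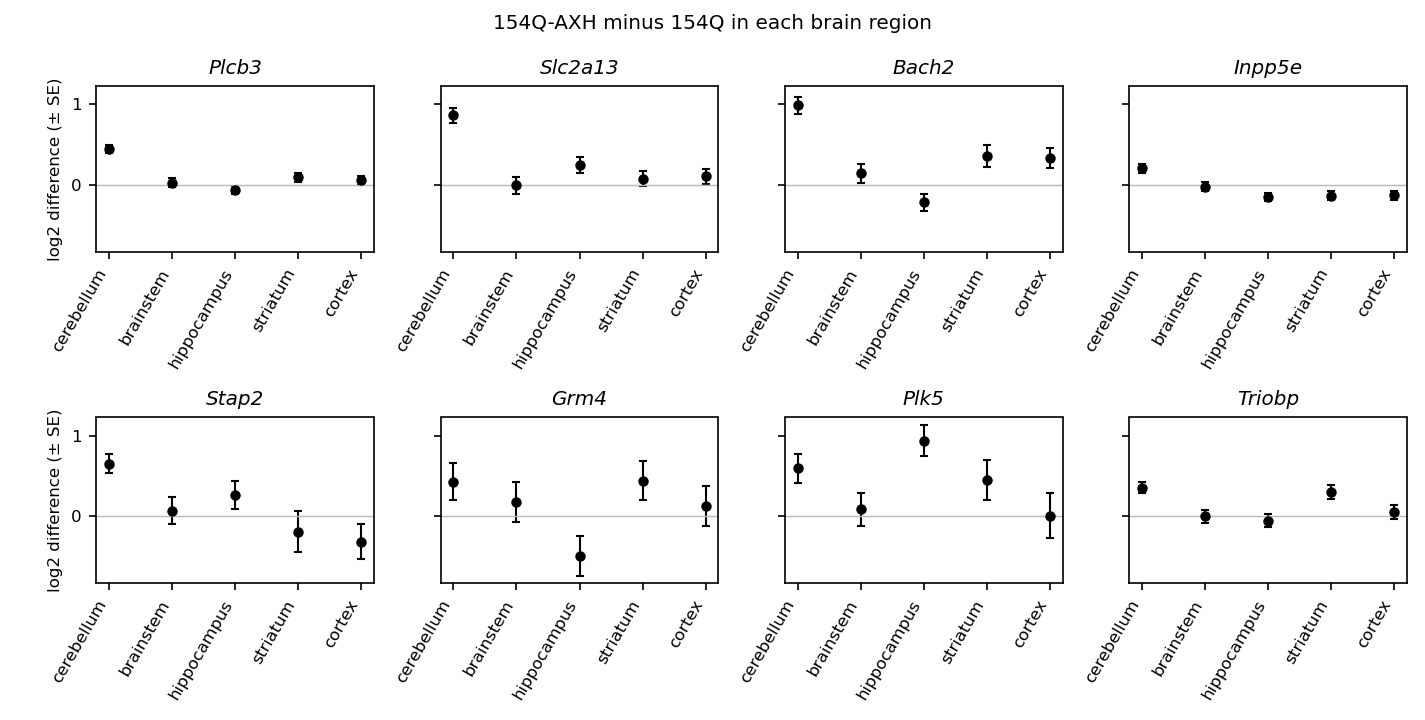
Log2 difference, 154Q-AXH minus 154Q, with SE (y axis), in each of 5 brain regions (x axis) for the 4 genes called in the region test (top) and 4 genes called in cerebellum (bottom). Plcb3 was at 0.45 in cerebellum and between -0.07 and 0.09 elsewhere.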

How the data were processed

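Counts per gene were deposited by the authors for each library, in unstranded and strand-specific columns, and the unstranded counts were used (48.9% to 49.7% of strand-assigned pairs lay on the first strand). Per the submitters' processing notes, reads were handled with Trimmomatic 0.36, STAR 2.7.2d and DESeq2 1.28.1, on builds GRCm38.p6 and mm10. A counting row for a human transgene (0 to 52 counts) and the rows that name no gene were left out (unmapped pairs 4.72% to 6.88%, pairs on no gene 7.92% to 9.15%).

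Counts of the 12 cerebellar libraries were filtered with filterByExpr, scaled by TMM and fitted by genotype with edgeR 4.0.16 in R 4.3.3 (quasi-likelihood test, Benjamini-Hochberg adjustment), and the pipeline was tested on simulated data. DESeq2 1.42.0 was an alternative, and 4 alternatives were chosen after seeing the data. The region test fitted 39 libraries of 154Q and 154Q-AXH mice. The same mice gave several regions, so mouse numbers pair libraries across regions by the labels, with deviations from group means correlating between -0.222 and 0.181. Nothing in the labels beyond mouse number says how animals were raised. In the cerebellar fit, p-values rest on the spread between mice within genotypes. In the main region test they rest on the spread between libraries, several of which share a mouse.

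Members and lists were chosen with earlier results of these data known. Named genes were ATXN1, its partners and CIC targets fixed by name, called genes with non-overlapping libraries, a mean of at least 1 CPM and an official symbol (up to 12 a direction), up to 4 called members a list, called genes with a CIC peak (up to 3 a direction), genes called in both tests, and Ttr, Xist and Ddx3y as library checks. List members that were not called, and the 3 genes called in the region test alone, were named after their values were seen. Peak membership came from the study's supplementary list, without its values. Analysis settings are otherwise those of the closing section. Some genes that passed the rule or belong to a list are counted but not reported by name here.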

Additional observations from a re-analysis of the deposited data

Results flagged for a closer look

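In 9 of 96 groups of 4 libraries, over 32 genes, 1 library stood apart from the other 3 by a gap that was a larger share of the group's range than Dixon's 95% limit, which chance passes in about 5% of groups. Among WT libraries the share was 0.840 for Plxdc1 (library WT-221, named by genotype and mouse number), and 0.899 for Atxn1l and 0.831 for Cic (both WT-77). Among 154Q libraries it was 0.933 for Kctd12 (154Q-71), and 0.846 for Atxn1l and 0.836 for Etv4 (both 154Q-69). Among 154Q-AXH libraries it was 0.869 for Ccdc63 and 0.841 for Kctd12 (both 154Q-AXH-209) and 0.913 for Etv5 (154Q-AXH-218).

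Differences between 154Q-AXH and 154Q that were larger in cerebellum than in the mean of the other 4 regions, by a test of that difference, were 0.420 for Plcb3, 0.755 for Slc2a13, 0.83 for Bach2 and 0.312 for Inpp5e.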

How the results depend on the processing

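Against 7 called genes, DESeq2 called 124, no filter on low counts 29, the mutant libraries alone 54, the mouse number series as a covariate 80 (36 higher and 44 lower, 2 of the 7 shared), Ttr as a covariate 18 and the counts of 1 strand 3. DESeq2 size factors gave 9 and Xist as a covariate 10. Leaving out 1 library gave 2 to 29, with 2 without 154Q-69, 154Q-75, 154Q-AXH-207 or 154Q-AXH-209, 3 without 154Q-AXH-218, 4 without 154Q-76 or 154Q-AXH-217, and 29, 16 and 14 without WT-70, WT-77 or WT-221. Of the alternatives chosen after seeing the data, leaving out both libraries with high Xist gave 2, libraries with Ttr over 100 CPM alone 0, series and Ttr as covariates 1, and DESeq2 on the mutant libraries alone 379. The cause was not tested. With the series as a covariate, list medians were 0.0678 for Purkinje calcium signalling, 0.0372 for interferon-stimulated genes, -0.0479 for granule cell markers and -0.0053 for genes with a CIC peak, and with series and Ttr the last 3 were -0.0279, -0.0428 and -0.0105. Some medians near 0 also changed sign with the series as a covariate. Among them were sodium channels (-0.25), synaptic vesicle release (-0.10), the MAPK cascade (-0.09), glutamate receptors (-0.07) and interneuron markers (0.05). The region test called 1 gene against striatum alone and 3 with mouse as a replicate block. Without 1 cerebellar library it called 3 to 14 (12 without that of 154Q mouse 69 and 14 without that of 154Q mouse 76). The other regions of that mouse stayed in. No result reversed as a called value. No paired analysis was possible because the 154Q and 154Q-AXH mice share no mouse number within the cerebellum. Number series and genotype cannot be told apart but through 4 WT mice, whose 2 series also differed in Ttr. Medians and calls with the series alone as a covariate therefore cannot separate series from Ttr. Having 4 mice a genotype limits small differences.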

Other observations

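Lists of myelin, energy and other cell classes had no called member. Oligodendrocyte and myelin markers (18 tested) had a median of -0.05, with 3 positive values, cholesterol synthesis genes (24 tested) one of -0.03 and heat shock chaperones (29 tested) one of 0.00. With the number series as a covariate these medians were 0.11, 0.08 and -0.08. The 13 mitochondrially encoded genes had a median of 0.05, and vessel and meninges markers (18 tested) one of 0.01. Inward-rectifier and two-pore potassium channels (27 tested) had a median of 0.03, GABA and glycine receptors (24 tested) one of -0.04, and brainstem and deep nuclei markers (7 tested) one of -0.03. Forebrain markers (8 tested) had a median of -0.20, negative in 24 of 24 alternatives. They summed to 15.4 to 16.2 CPM in 154Q and 12.45 to 14.8 in 154Q-AXH, without overlap. Neurod6 held most of the sum, with means of 10.5 and 9.48 CPM, and no member by itself was free of overlap.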
